A study of Mus musculus with 6 samples.

Results

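Type 2 dendritic cells were sought among single cells from mouse mammary tumours by a gate of UMI counts (unique molecular identifiers, counted mRNA molecules), and 355 of 18293 cells from 4 tumour stages were found. A cell with 500 or more UMIs, 200 or more genes and no more than 20% mitochondrial UMIs was taken when it had at least 1 UMI of Cd209a and 10 of Cd74. It also had to hold no UMI of Xcr1, Clec9a, Fscn1, Cd3e or Epcam, and at most 2 of C1qa, C1qb and C1qc together. These 355 are called Cd209a-gated cells here: 13 came from the Primary library, 44 from Dormant, 290 from long-term dormant (LT_DT) and 8 from Recurrent. The gate and its genes were set on measured values of these libraries, so the levels of Cd209a and Cd74 and the absence of the excluded genes describe the choice of cells.

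Type 2 conventional dendritic cells take up antigen in tissue and present it on MHC class II to helper T cells. They depend on the cytokine receptor Flt3, on the transcription factor Irf4 and, in spleen and gut, on signals through the receptor Notch2. Type 1 cells, which carry Xcr1 and Clec9a and need Irf8 and Batf3, present antigen to killer T cells, and both types turn into migratory cells with Ccr7 on their way to lymph nodes. Cd209a (DC-SIGN in mice) and Clec10a are sugar-binding lectins of the type 2 cell surface, and monocyte-derived cells can carry them as well.

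The study followed transplanted mammary tumours of the MMTV-Wnt1 and inducible FGFR1 model, in FVB (FVB.rGH-Luc-GFP) mice, and by the protocol shared by all groups B/B homodimerizer, which joins and so switches on the engineered receptor, was injected every 3 days until the tumours no longer needed it. The genotypes were labelled MMTV-Wnt1/iFGRR2 in Primary, MMTV-Wnt1/iFGRR1 in Dormant, MMTV-Wnt1/iFGRR4 in LT_DT and MMTV-Wnt1/iFGRR3 in Recurrent, and no label says what the last digit means. The mice were 8 to 10 weeks old in Primary, 10 to 12 in Dormant, 32 to 34 in LT_DT and 20 to 22 in Recurrent, so age and stage cannot be told apart. Dormant, LT_DT and Recurrent tumours came after 14 days of the FGFR inhibitor NVP-BGJ398 by gavage and 14 days off it, and the shared protocol does not say at which point Primary tumours were taken. Each stage had 1 library, the number of animals in it was not given, and the cells had been frozen, thawed and sorted as live by DAPI. An antibody experiment with 1 Jag1 and 1 IgG library (labelled MMTV-Wnt1/iFGRR6 and MMTV-Wnt1/iFGRR5) was read with another version of the chemistry and is not used for comparisons here. With 1 library for each stage there is no replicate error, so no test was made between stages or populations. All intervals are exact 95% intervals and cover counting error only.

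The stage libraries held 14185689 to 41259292 deposited UMIs, and kept cells had a median of 5709.5 UMIs in Primary, 2738.5 in Dormant, 3214 in LT_DT and 7550 in Recurrent. Among the 19668 deposited stage cells 194 barcodes occurred in 2 or more libraries. Of the gated cells 6 had such a barcode, and no barcode was gated in 2 libraries. Doublet calling marked 9 of the 290 LT_DT gated cells and none in the other stages. It marked 0 of 3276 Dormant cells, so it did not work in that library.

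The gated cells were most frequent in LT_DT. They were 0.300% of Primary cells (interval 0.160% to 0.513%), 1.34% of Dormant cells (0.978% to 1.80%), 4.83% of LT_DT cells (4.30% to 5.40%) and 0.171% of Recurrent cells (0.0737% to 0.336%). A UMI of Ptprc, the CD45 gene of blood cells, was held by 11, 33, 180 and 7 of the gated cells in that order. These were 0.771%, 2.04%, 10.8% and 0.539% of all cells with a Ptprc UMI. The intervals of LT_DT lay above those of the other stages on both scales, and the Dormant interval lay between LT_DT and the other stages. With every cell thinned to 2000 UMIs the shares were 0.317%, 1.25%, 5.19% and 0.181%, in the same order. Within all gated dendritic cells (Cd209a-gated, Xcr1/Clec9a and migratory together) the Cd209a-gated cells were 13 of 35 in Primary, 44 of 98 in Dormant, 290 of 586 in LT_DT and 8 of 35 in Recurrent. In that denominator LT_DT and Dormant stood close, at 49.5% and 44.9%. Fewer cells of a type in a library and fewer of them passing a gate on UMIs cannot be told apart.

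**Figure D1:**
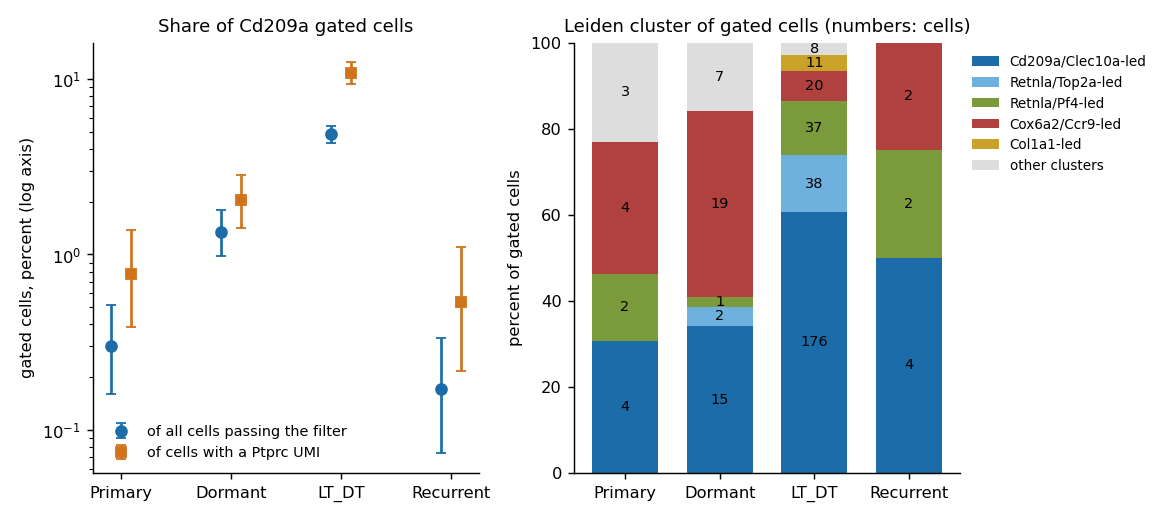
Left, Cd209a-gated cells as a percent of all kept cells and of cells with a Ptprc UMI in each stage library, on a log axis with exact 95% intervals. Right, the Leiden clusters (groups of cells with like expression) that held the gated cells, as a percent of each library's gated cells with the number of cells. LT_DT stands highest at 4.83% of all cells, and cluster 13 (Cox6a2/Ccr9-led) takes 6.90% of the gated cells in LT_DT against 43.2% in Dormant.

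Most of the LT_DT gated cells, and smaller shares of those in the other stages, fell into a type 2 dendritic-like cluster. Clustering of all stage cells put 176 of the 290 LT_DT gated cells (60.7%, 54.8% to 66.3%) into cluster 16, a type 2 dendritic-like cluster led by Cd209a, Cd209d, Clec10a and Clec4b1. Cluster 13, led by Cox6a2, Ccr9, Spib, Klk1 and Siglech and plasmacytoid dendritic-like, took 4 of 13 gated cells in Primary, 19 of 44 in Dormant (43.2%, 28.3% to 59.0%), 20 of 290 in LT_DT (6.90%, 4.26% to 10.5%) and 2 of 8 in Recurrent. Plasmacytoid cells are the interferon-making relatives of conventional dendritic cells. The other LT_DT cells lay mainly in cluster 4 (37 cells), led by Retnla and Pf4, in cluster 19 (38 cells) and in cluster 2 (11 cells), led by Col1a1. Cluster 19 was led by Retnla and held Top2a, Cd209a and Clec4b1 among its leading genes. Cluster 16 held 265 LT_DT cells in all, of which 89 failed the gate, 63 of them for want of a Cd209a UMI. It took 4 of 13 gated cells in Primary, 15 of 44 in Dormant and 4 of 8 in Recurrent. Cd209a both chose the cells and leads this cluster, so their placing there is no test of the name type 2 dendritic cell.

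Cd209a itself was read in few molecules. The LT_DT gated cells had a median of 3 and a highest count of 37 Cd209a UMIs, and 71 of them had a single UMI. In Dormant 18 of 44 had a single UMI, with a median of 2 and a highest count of 20. Pooled over gated cells, Cd209a stood at 1056 CPM in Primary, that is UMIs of the gene per 1000000 UMIs of the pooled cells, with, 699 in Dormant, 1055 in LT_DT and 878 in Recurrent. This level was set by the gate and is given as a description.

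H2-Aa, the alpha chain of an MHC class II molecule, was near the same pooled level in all stages. The gate did not use it, but it used Cd74, the chaperone of class II. H2-Aa stood at 12471 CPM in Primary (11562 to 13432), 13256 in Dormant (12797 to 13727), 14157 in LT_DT (13948 to 14368) and 11828 in Recurrent (10798 to 12929). In LT_DT 287 of 290 gated cells had H2-Aa, with 0 to 247 UMIs and a median of 52 in a cell. The median cell held 32 UMIs in Primary, 28.5 in Dormant and 49 in Recurrent, so single cells were less alike than the pooled levels. In Dormant the quartiles were 16.25 and 114.25 UMIs. H2-Ab1, the beta chain, ranged more widely, at 6334, 9691, 9845 and 11901 CPM from Primary to Recurrent.

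The promoters of Cd209a, of its neighbour and relative Cd209d, and of H2-Aa are shown because these genes mark the cells. They run from 250 bases before to 50 bases after the start site on the minus strand of GRCm38.p6, from RefSeq: chr8:3748935-3749234 for Cd209a, chr8:3878450-3878749 for Cd209d and chr17:34287774-34288073 for H2-Aa. Capitals mark CTTCCT or, as the reverse complement, AGGAAG, letters that hold the core bound by ETS factors such as Spi1, and ATTGG, the reverse complement of the CCAAT box that promoters of MHC class II genes carry.
Cd209a: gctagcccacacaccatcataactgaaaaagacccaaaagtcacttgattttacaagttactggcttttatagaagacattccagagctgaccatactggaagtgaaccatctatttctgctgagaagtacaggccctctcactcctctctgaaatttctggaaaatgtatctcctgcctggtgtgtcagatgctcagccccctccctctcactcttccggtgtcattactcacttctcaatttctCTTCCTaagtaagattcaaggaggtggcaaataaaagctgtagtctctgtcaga
Cd209d: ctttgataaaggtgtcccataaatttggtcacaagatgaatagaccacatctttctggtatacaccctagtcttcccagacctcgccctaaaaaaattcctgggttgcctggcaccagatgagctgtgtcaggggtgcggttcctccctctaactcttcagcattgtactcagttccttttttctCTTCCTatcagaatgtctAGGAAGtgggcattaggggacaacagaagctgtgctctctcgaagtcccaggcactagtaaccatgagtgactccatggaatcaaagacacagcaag
H2-Aa: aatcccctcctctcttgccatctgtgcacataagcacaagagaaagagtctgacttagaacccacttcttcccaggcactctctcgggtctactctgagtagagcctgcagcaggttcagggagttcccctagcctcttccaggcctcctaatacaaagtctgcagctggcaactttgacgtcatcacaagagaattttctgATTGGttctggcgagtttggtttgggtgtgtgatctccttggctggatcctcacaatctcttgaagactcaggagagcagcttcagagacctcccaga
CTTCCT begins at position -4 in Cd209a, counting back from -1 just before the start site. In Cd209d CTTCCT begins at position -65 and AGGAAG at -47. ATTGG begins at position -48 in H2-Aa and is not in the windows of Cd209a and Cd209d. Of 32851 promoters of the same length, 11613 (35.4%) hold CTTCCT or AGGAAG and 12289 (37.4%) hold ATTGG or CCAAT, so these matches are common letters.

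Receptors of conventional dendritic cells were present at low counts. Flt3, the receptor that dendritic cells need to form, had 1 UMI in Primary (17.9 CPM), 13 in Dormant (54.7 CPM, 29.1 to 93.5), 60 in LT_DT (48.4 CPM, 37.0 to 62.4) and 2 in Recurrent (48.8 CPM). Only 50 of the 290 LT_DT cells had a Flt3 UMI. With cells thinned to 1500 UMIs, Flt3 was seen in 7.17% of the 279 deep enough LT_DT gated cells (4.43% to 10.9%), against 0.103% of 1937 LT_DT fibroblast-gated cells, which should lack it. That thinning left out 11 gated and 133 fibroblast-gated cells, from populations with median depths of 3660.5 and 3802 UMIs. Unthinned, 17.2% of the gated cells had a Flt3 UMI. Ccr2, a chemokine receptor of monocytes and of part of the type 2 cells, stood at 304, 231, 356 and 415 CPM in Primary, Dormant, LT_DT and Recurrent, and 191 LT_DT cells had it.

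Among the surface genes used to sort type 2 cells, Clec10a stood at 125 CPM in Primary, 678 in Dormant (577 to 791), 639 in LT_DT (596 to 686) and 341 in Recurrent. It was low in Primary, and the Dormant and LT_DT intervals overlapped. Cd209d stood at 268, 362, 236 and 195 CPM and Clec4b1, another lectin, at 35.8, 189, 307 and 293 CPM in the same order. Sirpa, the receptor for CD47, stood at 53.7, 75.7 and 116 CPM in Primary, Dormant and LT_DT and had no UMI in Recurrent, where 3 UMIs would be 73.2 CPM. In LT_DT fibroblast-gated cells thinned to 1500 UMIs, Sirpa was still seen in 9.29% of cells, against 14.7% of gated cells, so Sirpa separates the cell types weakly here. Itgax, the CD11c gene, stood at 71.6, 63.1 and 42.8 CPM in Primary, Dormant and LT_DT, and Itgam, the CD11b gene, at 53.7, 12.6, 54.1 and 73.2 CPM in Primary, Dormant, LT_DT and Recurrent. Mgl2, which marks type 2 cells of the skin and lung, stood at 53.7, 21.0, 12.9 and 97.5 CPM, and only 13 LT_DT cells had it.

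Among transcription factors Irf8 differed in level between the stages, while Irf4 and Zbtb46 had too few UMIs for a stage pattern. Irf8 stood at 519 CPM in Primary, 337 in Dormant, 92.9 in LT_DT and 341 in Recurrent, lowest in LT_DT. Plasmacytoid-like cluster 13 held 30.8%, 43.2%, 6.90% and 25% of the gated cells in the same order. The part of these cells in the Irf8 levels of Primary and Recurrent was not tested. Irf4 had 53.7, 21.0 and 38.8 CPM in Primary, Dormant and LT_DT and no UMI in Recurrent. Zbtb46, a factor of conventional dendritic cells, had 21.0 CPM in Dormant and 12.9 in LT_DT and no UMI in Primary and Recurrent, where 3 UMIs would be 53.7 and 73.2 CPM. In the Notch pathway, which the study blocked at Jagged-1 in its antibody experiment, the receptor Notch2 stood at 53.7 CPM in Primary, 42.1 in Dormant (20.2 to 77.4) and 149 in LT_DT (128 to 172), with no UMI in Recurrent (0 to 90.0). Its target Hes1 had 21.0, 17.0 and 24.4 CPM in Dormant, LT_DT and Recurrent, and no UMI in Primary. Dtx1, another target, had no UMI in any stage, and in LT_DT 3 UMIs would be 2.42 CPM.

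Markers of other cells differed in level between the stages. The 15 plasmacytoid genes summed to 5207 CPM in Primary, 3362 in Dormant, 1078 in LT_DT and 3219 in Recurrent, with 13 to 15 of them detected. The type 2 list summed to 1485, 1675, 1949 and 1805 CPM, with 13, 16, 18 and 12 of its 21 genes detected. In Primary and Recurrent these sums rested on 83 and 74 UMIs, and the genes behind them differed between stages. The monocyte list summed to 4080, 3661, 5753 and 11340 CPM, and the macrophage list to 1431, 640, 909 and 1268 CPM, with the efferocytosis receptor Mertk at 0 in every stage. The Recurrent monocyte sum rested on 465 UMIs in 8 cells, and Lyz2 alone stood at 8023 CPM there. Its median was 3 UMIs in a Recurrent cell and its highest count 158, so few cells carried that sum. Fcgr1, the CD64 gene that marks monocyte-derived cells, stood at 17.9, 8.42, 14.5 and 48.8 CPM. The fibroblast and endothelium list summed to 53.7, 210, 2804 and 48.8 CPM, with all 11 of its genes detected in LT_DT and 91 of 290 cells holding at least 3 of them. The epithelium list was lowest in LT_DT, at 537, 164, 25.03 and 707 CPM from Primary to Recurrent. At least 3 of its genes were held by 3 of 13, 2 of 44, 0 of 290 and 2 of 8 cells. The type 1 list summed to 1288, 955, 631 and 1146 CPM and the migratory list to 680, 1591, 688 and 634 CPM. The part of these other-cell markers in the stage differences was not tested, beyond the values given below without cluster 13 or without cells holding Col3a1.

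**Figure D2:**
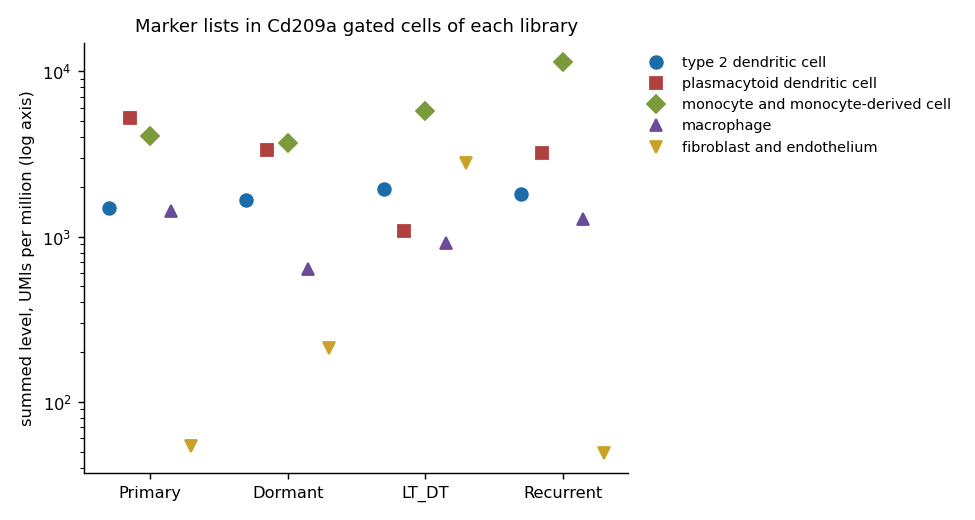
Summed CPM (log axis) of the type 2 dendritic, plasmacytoid dendritic, monocyte, macrophage and fibroblast marker lists in the pooled Cd209a-gated cells of each stage library. The plasmacytoid list is lowest in LT_DT, at 1078 CPM, and the fibroblast list is highest there, at 2804 CPM.

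Within LT_DT the gated cells fell into groups with unlike genes beside Cd209a. Irf8 stood at 1541 CPM (1194 to 1956) in the 20 cells of cluster 13, against 56.5 CPM in the 176 cells of cluster 16. Ccr9 stood at 713 against 14.1 CPM, Siglech at 437 against 1.57 CPM and Bst2 at 5518 against 596 CPM in the same order, 3 genes typical of plasmacytoid cells. Cluster 13 had less Clec10a, at 46 against 754 CPM, and less H2-Aa, at 3403 against 16490 CPM, but more Cd209d, at 805 against 322 CPM. Lyz2, a lysozyme of monocytes and macrophages, reached 9088 CPM in cluster 4 against 2023 CPM in cluster 16, with Flt3 at 6.48 against 75.3 CPM. Clec10a stood close in both, at 817 and 754 CPM. Cluster 19 carried Stmn1 at 792 CPM and Ube2c at 480 CPM, genes of dividing cells, against 28 and 4.71 CPM in cluster 16. Cluster 2 carried the collagen Col3a1 at 12053 CPM against 229 CPM in cluster 16. These genes took part in the clustering, so the differences describe the clusters and are no test of them.

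**Figure D3:**
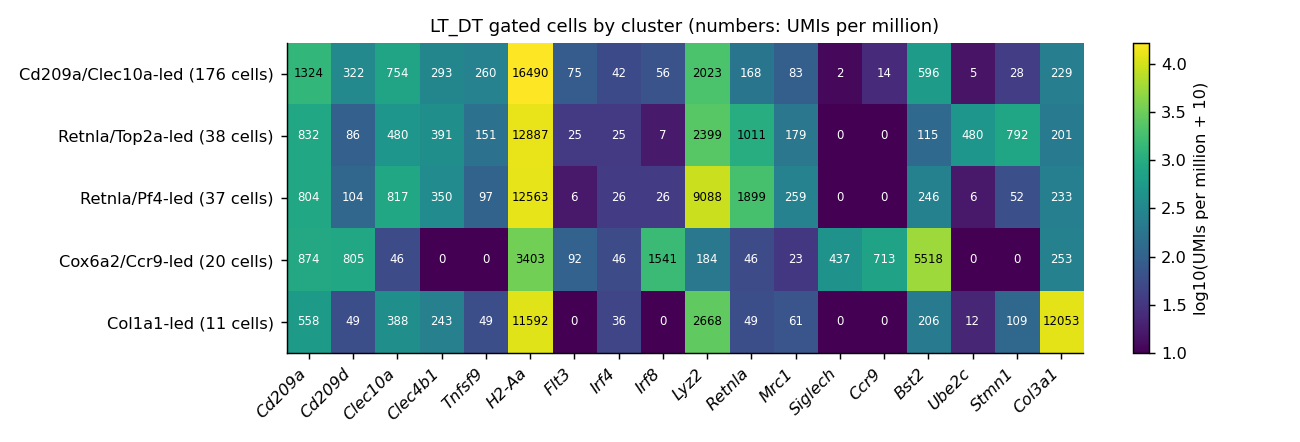
CPM of 18 genes in the LT_DT Cd209a-gated cells, by Leiden cluster named by its leading genes: cluster 16 (Cd209a/Clec10a-led), 19 (Retnla/Top2a-led), 4 (Retnla/Pf4-led), 13 (Cox6a2/Ccr9-led) and 2 (Col1a1-led). Numbers are CPM and colours log10 of CPM plus 10. Irf8, Siglech, Ccr9 and Bst2 are high in cluster 13, Ube2c and Stmn1 in cluster 19, Lyz2 and Retnla in cluster 4 and Col3a1 in cluster 2.

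The 290 LT_DT cells were also split by the presence of 1 gene. The 55 cells with Ly6c2, a surface gene of monocytes and plasmacytoid cells, had Irf8 at 361 CPM against 36.2 CPM in the 235 without it (log2 ratio 3.31, 2.74 to 3.92) and Siglech at 87.9 against 0.978 CPM. Their median depths were alike, at 3651 and 3662 UMIs. Cluster 13 held 15 of the 55 cells with Ly6c2 and 5 of those without it. Outside cluster 13 Irf8 stood at 109.96 CPM in 40 cells with Ly6c2 and 27.6 CPM in 230 without it (2.00, 1.09 to 2.87), and Siglech had 1 UMI in all. The 48 cells with Mki67 or Top2a, genes of dividing cells, had Ube2c at 385 against 11.1 CPM (log2 ratio 5.06), and 35 of them lay in cluster 19. These cells were deeper, at a median of 6942 against 3462.5 UMIs, and with all cells thinned to 1500 UMIs the ratio of Ube2c was 4.12. Cells with and without the dividing-cell genes had near the same H2-Aa, at a log2 ratio of -0.15 (-0.20 to -0.11). The 59 cells with Itgam had Retnla, a secreted resistin-like protein of alternatively activated macrophages, at 1704 against 229.8 CPM (log2 ratio 2.89, and 3.22 thinned). The 191 cells with Ccr2 had Retnla at 814 against 42.9 CPM (log2 ratio 4.20, and 2.11 thinned). Few cells carried Retnla: 13 of the cells of cluster 16, 11 of cluster 19 and 8 of cluster 4 had a UMI.

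At the edges of the gate, the 71 LT_DT cells with a single Cd209a UMI had H2-Aa at 11452 CPM and Flt3 at 15.7 CPM. The 818 LT_DT cells that passed the other gates with no Cd209a UMI had H2-Aa at 9322 CPM and Flt3 at 24.3 CPM. Cells just inside and outside the Cd209a threshold were thus close in H2-Aa and, at low counts, in Flt3. They were less close in Clec10a, at 530 and 246 CPM, and in Cd209d, at 208 and 26.8 CPM. The 219 LT_DT cells with 2 or more Cd209a UMIs had H2-Aa at 14857 CPM, Flt3 at 56.9 CPM and Clec10a at 668 CPM. Lyz2 stood at 3684 CPM in the cells with a single Cd209a UMI and 5435 CPM in those with none, and Fcgr1 at 11.8 and 46.7 CPM. At the Cd74 threshold, 16 cells with 10 to 14 UMIs had H2-Aa at 2757 CPM, and 13 cells with 5 to 9 UMIs had 2630 CPM. The limit on C1q genes touched few cells in LT_DT: 12 LT_DT cells had 1 or 2 of these UMIs, and 2 had more. In Primary 8 of 13 and in Recurrent 4 of 8 gated cells had 1 or 2. There 4 Primary and 3 Recurrent cells that met the other gates had 5 or more.

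The LT_DT gated cells were next set against the 245 LT_DT cells with Xcr1 or Clec9a, the type 1 dendritic cells by the same cell filter. A gene was called when it had at least 20 UMIs over both populations, differed at least 2-fold and had an interval of the ratio off 1. Of 6857 genes, 507 (7.39%) were called higher in the Cd209a-gated cells and 318 (4.64%) lower. The rule that chose the cells used this contrast, so the counts below describe the populations and nothing is read from them against those shares.

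Among type 2 genes, 8 of 13 measured were higher in the Cd209a-gated cells and 1 was lower, the aryl hydrocarbon receptor Ahr (-1.90), at a median log2 ratio of 2.51 beside 0.05 over all genes. Clec10a stood at 639 CPM in gated cells and 34.8 in Xcr1/Clec9a cells (log2 ratio 4.19, 3.76 to 4.68). Sirpa stood at 116 and 14.6 CPM (2.96, 2.29 to 3.79) and Irf4 at 38.8 and 6.47 CPM (2.51, 1.49 to 3.87). Of 13 C-type lectins 11 were higher and none lower, led by Cd209e, which had no UMI in the Xcr1/Clec9a cells and was at least 9.65-fold higher against a floor of 3 UMIs for the population. Cd209d (236 and 25.1 CPM) and Clec4a3 (log2 ratio 3.43) were also higher. The type 1 list went the other way, with 9 of 11 genes lower and none higher: Irf8 stood at 92.9 CPM in gated cells and 732 in Xcr1/Clec9a cells (-2.97), Naaa, a lipid amidase, at 110 and 767 CPM, and Wdfy4, which is needed to present dead-cell antigen on MHC class I, at 46.0 and 281 CPM. Of the genes shared by all dendritic cells, Flt3 stood at 48.4 and 71.1 CPM (-0.55, -1.05 to -0.06) and Zbtb46 at 12.9 and 25.1 CPM (-0.93). Neither was called, but Zbtb46 passed the call with at least 2 Cd209a UMIs (-1.12, -2.31 to -0.13), with no C1q UMI (-1.02) and by the mean of CPM per cell (-1.03). Cst3, a protease inhibitor abundant in type 1 cells, stood at 4278 and 16746 CPM (-1.97, -2.01 to -1.93).

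Chemokine genes were in part higher in the Cd209a-gated cells. Of 13 measured, 8 were higher and none lower, though 6 of the 13 are candidates for free RNA, of which 3 were among the higher ones. With the members of cluster 16 alone the count was 3 higher and 2 lower of 12. Ccl9, a chemokine for myeloid cells, stood at 639 CPM in gated cells and 63.9 in Xcr1/Clec9a cells, and Cxcl2, which draws neutrophils, at 797 and 128 CPM. Of the costimulation list 5 of 12 genes were higher and 1 lower: Tnfsf9, the ligand of the T cell receptor 4-1BB, stood at 184 and 18.6 CPM (log2 ratio 3.28, 2.69 to 3.99), and Cd40 was higher by 1.65. Of 13 Fc receptor and phagocytosis genes 5 were higher and 2 lower, with Fcgr3 at a log2 ratio of 3.85 and Fcgr2b at 2.17. Monocyte genes were higher in 11 of 17 and lower in 2.

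Antigen presentation genes differed in a few members. Of 14 class II genes 3 were higher and 1 lower, at a median of 0.31, and H2-Aa differed by -0.02 (-0.05 to 0.01), at 14157 CPM in gated cells and 14316 in Xcr1/Clec9a cells. The proteases Ctss and Lgmn, which trim the invariant chain and antigen, were higher by 1.24 and 1.28, as was Ctsb by 1.09, which was not called with cluster 16 alone (0.31). March1, a ligase that removes class II from the surface, was lower at -1.36. Of 17 class I genes 3 were lower and none higher: the immunoproteasome subunit Psmb9 (-1.84) and the peptide transporter chains Tap1 (-1.07) and Tap2 (-1.16). No gene of 13 in the Notch list was called, with Notch2 at 149 and 174 CPM (-0.23, -0.52 to 0.06). Among 25 dendritic transcription factors 8 were higher and 4 lower. Zeb2, a factor of type 2 and plasmacytoid cells, stood at 236 and 27.5 CPM (3.08), Cebpb was higher by 2.43 and Id2 lower at -2.05, while Klf4 differed by 0.08. Outside the lists, Tmem176b, an ion channel of resting dendritic cells, stood at 472 and 30.7 CPM and S100a4, a calcium-binding protein, at 1452 and 207 CPM. Plasmacytoid genes were higher in 13 of 14 and lower in 1, and with cluster 16 alone in 4 of 7, with 2 lower.

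How many cells held a gene was compared with every cell thinned to 1500 UMIs. Clec10a was seen in 47.3% of Cd209a-gated cells (41.3% to 53.4%, and 70.3% unthinned), against 3.88% of Xcr1/Clec9a cells, 4.35% of migratory cells, 50% of C1q-high cells and 0.826% of fibroblast-gated cells. It thus set the gated cells apart from the other dendritic cells but not from C1q-high cells. Cd209d was seen in 20.8% of Cd209a-gated cells, against 2.59%, 0%, 1.32% and 0.103% in the same order, and Tnfsf9 in 19.7%, against 2.59%, 10.9%, 1.32% and 2.37%. Irf8 was seen in 10.4% of Cd209a-gated cells and 60.8% of Xcr1/Clec9a cells. Notch2 was seen in 17.9% of Cd209a-gated cells and in 10.3% of fibroblast-gated cells, which also use Notch receptors.

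The cell cycle list differed little as a whole, with 2 of 22 genes lower and none higher at a median of -0.39. With cluster 16 alone, which leaves out the dividing cells of cluster 19 on the gated side only, 20 of 22 were lower at a median of -2.76.

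**Figure D4:**
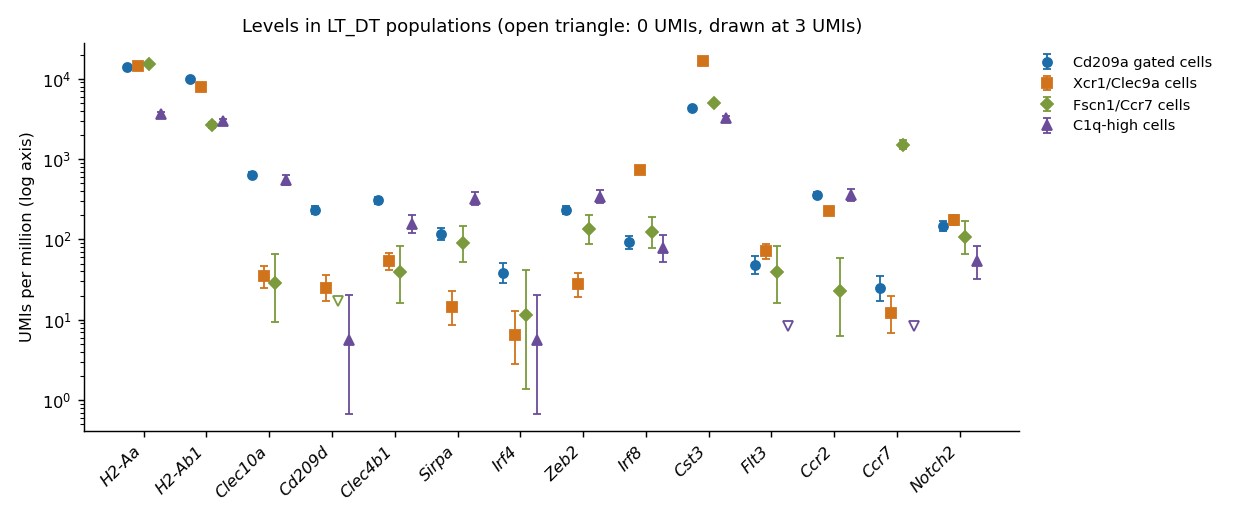
CPM (log axis) of 14 genes in 4 LT_DT populations: Cd209a-gated, Xcr1/Clec9a, migratory and C1q-high cells, with exact 95% intervals. An open triangle marks a gene with 0 UMIs, drawn at the level of 3 UMIs. Clec10a stands at 639 CPM in the Cd209a-gated cells and 34.8 in Xcr1/Clec9a cells, Irf8 at 92.9 and 732, and Ccr2 at 356 against 22.8 in migratory cells.

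Against the 51 migratory LT_DT cells, which were chosen by Fscn1 and Ccr7, 571 of 5334 genes (10.7%) were higher in the Cd209a-gated cells and 457 (8.57%) lower, again a contrast the rule used. With TMM scaling, which shifted all log2 ratios by -0.18, 401 were higher and 582 lower. The migratory list was lower in 13 of 16 genes, at a median log2 ratio of -3.88. Ccl22, the chemokine of mature dendritic cells for regulatory T cells, stood at -6.06, Mreg, an organelle transport protein, at -5.99, and Il4i1, an amino acid oxidase that dampens T cells, at -4.83. Of the type 2 list 5 of 13 genes were higher and none lower, at a median of 1.40, or 1.18 with genes unseen in migratory cells set at their bound. Clec10a was higher by 4.35, and Cd209d had no UMI in migratory cells and was at least 13.8-fold higher.

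The gated cells carried the receptor Ccr2 at 356 CPM against 22.8 CPM in migratory cells (3.80, 2.60 to 5.85), and Id2, an inhibitor of DNA-binding factors, at 162 against 1697 CPM (-3.38). Relb, the NF-kB factor of dendritic cell maturation, was lower at -2.92 and the costimulator Cd80 at -2.17. H2-Ab1 stood at 9845 against 2682 CPM (1.87, 1.74 to 2.01) and H2-DMb1, a chain of the class II peptide editor, at 975 against 131 CPM (2.87), while H2-Aa stood at 14157 against 15231 CPM (-0.11). Class II genes in all were higher in 3 of 13 and lower in none. Class I genes were lower in 8 of 14, at a median of -1.03, with Psme2, a proteasome activator, at -1.92, H2-K1 at -1.22 and B2m at -1.01. Stmn1 had no UMI in migratory cells and was at least 12.3-fold higher, and 12 of 19 cell cycle genes were higher. The median of that list was 3.16, or 0.95 with unseen genes at their bound, and with the members of cluster 16 alone Stmn1, Ube2c and Mki67 had 18, 3 and 6 UMIs, against 0 in migratory cells, and fell under the minimum of 20 for a call. Flt3 did not separate the populations, at 48.4 and 39.9 CPM (0.19, -0.85 to 1.66).

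Against the 87 C1q-high LT_DT cells, macrophage-like cells with at least 10 C1q UMIs, 356 of 5756 genes (6.18%) were higher in the Cd209a-gated cells and 565 (9.82%) lower. The rule used this contrast too. TMM scaling, with a shift of 0.14, gave 467 higher and 465 lower, and leaving out mitochondrial, ribosomal and haemoglobin genes, with a shift of 0.17, gave 492 and 438. Those genes held 34.3% of UMIs in gated cells and 26.0% in C1q-high cells.

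Macrophage genes were lower in 15 of 17 and higher in none, at a median log2 ratio of -3.84. The platelet factor Pf4 stood at 31.5 CPM in gated cells and 2045 in C1q-high cells, the lipid carrier Apoe at 182 and 9057 CPM, and the receptors Trem2 and Csf1r at -4.15 and -2.47. Class II genes split by kind, with 9 of 13 higher and 4 lower. H2-Aa stood at 14157 and 3684 CPM (1.94, 1.86 to 2.02), H2-Ab1 at 9845 and 2971 CPM, and H2-Oa, a brake on class II loading, had no UMI in C1q-high cells and was at least 7.87-fold higher. The 4 lower genes were the lysosomal proteases Lgmn (-3.78), Ctsb (-3.18), Ctsl (-2.40) and Ctss (-1.59). Of the genes common to dendritic cells 8 of 15 were higher and 1 lower. Flt3 stood at 48.4 CPM and had no UMI in C1q-high cells, which makes it at least 5.76-fold higher, and the dendritic factors Bcl11a and Batf3 were higher by 3.28 and 1.93.

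Of the type 2 list 6 of 14 genes were higher in the gated cells (Kmo, Cd7, Irf4, Tnip3, Ahr and Ltb) and 1 lower, at a median of 0.15, and with cluster 16 alone 6 of 12 were higher and 1 lower, at 0.89. Other markers used for type 2 cells stood close in gated and C1q-high cells. Clec10a stood at 639 CPM in gated cells and 544 in C1q-high cells (0.23, 0.00 to 0.47), Ccr2 at 356 in both, and Klf4 at 264 and 269 CPM. Sirpa was lower in the gated cells, at 116 and 323 CPM (-1.47, -1.84 to -1.11). Cd209d, at 236 and 5.61 CPM (5.07), and Irf4, at 38.8 and 5.61 CPM (2.48), were higher. Of 16 monocyte genes 2 were higher and 8 lower, among them Fcgr1 at 14.5 and 143 CPM and the complement receptor C5ar1 at -3.84. Chemokines were lower in 12 of 16 and higher in none, led by Ccl12 (-6.90) and Ccl24 (-6.65), and lipid genes in 8 of 15 with none higher, among them the scavenger receptor Cd36 (-3.73) and the cholesterol exporter Abca1 (-3.35). Of 12 Notch genes 2 were higher and 2 lower. One of the lower genes, the gamma-secretase subunit Ncstn (-1.23), rested on 18 UMIs in gated cells and 12 in C1q-high cells and was not called with TMM scaling (-1.10, -2.21 to 0.11), and its interval also spanned 0 under 4 other settings. Notch2 stood at 149 and 53.3 CPM (1.45, 0.79 to 2.24) and was no longer called among cells with no Col3a1 UMI (0.81). Tnfsf9 was higher by 3.87, Klrd1, a CD94 chain better known from NK cells, stood at 186 and 11.2 CPM, and the complement receptor C3ar1 was lower at -4.77.

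The last comparison set the 290 LT_DT cells against the 44 Dormant cells. It was added although 44 is under the minimum of 50 cells chosen for such comparisons, and Primary and Recurrent held too few cells for one. Of 5481 genes, 303 (5.53%) were higher in LT_DT and 378 (6.90%) lower. Because 19 of the 44 Dormant cells were plasmacytoid-like, each value was also taken outside cluster 13, with 270 LT_DT and 25 Dormant cells. There 190 of 5155 genes (3.69%) were higher and 258 (5.00%) lower, of which 144 and 175 were called both ways. The gate did not use the stage. Each stage is 1 library, so stage, age and library cannot be told apart.

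Heat shock and tissue-handling genes were lower in LT_DT: 10 of 14 in all gated cells and 12 of 14 outside cluster 13, with none higher, at medians of -1.41 and -1.54 beside -0.06 and -0.05 over all genes. The chaperone Hspa1a stood at 111 CPM in LT_DT and 1128 in Dormant (log2 ratio -3.35, -3.66 to -3.05, and -3.83 outside cluster 13). Hsp90aa1 stood at 312 and 871 CPM (-1.48 and -1.71 outside). Dnajb1, a co-chaperone, was lower at -1.72 and -1.79, and was no longer called within cluster 16 alone (-0.43). The list is one of genes that tissue handling can raise, and handling and stage cannot be told apart between 2 libraries.

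Plasmacytoid genes were lower in 11 of 14, at a median of -2.36, and outside cluster 13 the list stood at 0.50 with 1 of 6 higher and 1 lower. Cox6a2, a mitochondrial subunit, was lower at -3.66, Ccr9 at -3.13 and Siglech at -2.96. Irf8 followed the same cells, at 92.9 CPM in LT_DT and 337 in Dormant (-1.86), against -0.72 outside cluster 13 (-1.66 to 0.49), where it was not called. Xbp1, a factor of secretory cells, was likewise lower at -2.02 and not called outside (-0.91). Runx3, a factor of dendritic and T cells, was lower at -3.00 and -1.67 outside, but was not called within cluster 16 alone (-1.34, -2.72 to 0.55). Id2, at 162 CPM in LT_DT and 429 in Dormant, was lower at -1.41 and -1.71.

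In pooled UMIs, class II genes stood close in both stages. Of 13 class II genes none was higher and 1 lower, and outside cluster 13 the count was 1 and 1. H2-Aa differed by 0.09 and H2-Ab1 by 0.02, and by -0.23 and -0.44 outside cluster 13. H2-DMb2, a chain of the peptide editor, stood at 107 CPM in LT_DT and 252 in Dormant (-1.25, and -1.77 outside), but was not called among cells with at least 2 Cd209a UMIs (-0.38). Clec10a differed by -0.09 and -0.55 outside, and Flt3 by -0.22 (-1.06 to 0.81) and 0.19 outside, none of them called. Of the type 2 list 3 of 14 genes were higher and 1 lower, and outside cluster 13 1 higher and 1 lower.

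Notch2 stood at 149 CPM in LT_DT and 42.1 in Dormant (1.75, 0.91 to 2.90) and was called outside cluster 13 as well (1.32, 0.44 to 2.55). With at least 2 Cd209a UMIs in each cell it stood at 0.99 and was not called. Rbpj, the DNA-binding partner of Notch, stood at 84.0 and 25.2 CPM (1.63) but at 1.04 outside cluster 13 (-0.02 to 2.63), where it was not called. These were the 2 called genes of 11 in the Notch list. Itgam (1.89), Zeb2 (1.20) and Tnfsf9 (1.41) were higher in all gated cells, and none of them was called outside cluster 13, at 1.34, 0.93 and 0.87.

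Of 22 genes of growth factor and cytokine receptors and their signals, 7 were lower in LT_DT in all gated cells, with 1 higher, and 7 outside cluster 13, with none higher. The decoy receptor Il1r2 stood at 46.8 CPM in LT_DT and 215 in Dormant (-2.20, and -2.71 outside), Il4ra at -1.62 and -1.55, and Il2rg, the chain shared by several interleukin receptors, at -1.61 and -1.97. Il4ra was no longer called within cluster 16 alone (-1.26). Markers of T and NK cells, which also use Il2rg, were lower in LT_DT as well, at 67.8 CPM summed in LT_DT and 480 in Dormant. At least 3 of these 14 markers were held by 5 of 290 LT_DT and 7 of 44 Dormant gated cells. Of the 4 with enough UMIs 3 were lower, at a median of -2.96, and outside cluster 13 2 of 3 were lower. Their part in the values of Il2rg and Runx3 was not tested. Genes of migratory cells were lower in 4 of 11 in all gated cells and in 4 of 11 outside cluster 13: Ccl22, Ccl5, Il4i1 and Ccr7. The Dormant levels of 2 of them came from very few cells. All 19 Dormant UMIs of Ccl22 lay in 1 cell and all 12 of Il4i1 in 2 cells, and these belonged to cluster 20, led by Ccr7, Ccl22 and Fscn1, which held 2 Dormant gated cells. Of the 13 Dormant Ccr7 UMIs 7 lay there as well. Within cluster 16 the 15 Dormant cells had no UMI of Ccl22 or Il4i1 and 1 of Ccr7, too few to show a level. Ccl5 did not rest on cluster 20: its 133 Dormant UMIs lay in 24 cells, with 4 UMIs in that cluster. However, Ccl5 is no gene of migratory cells alone. It is also among the leading genes of cluster 7, with Gzma, Il2rb and Nkg7, which held 1 Dormant gated cell. The part of T and NK cell RNA in the Ccl5 values was not tested.

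Outside the lists, Crip1, a small LIM protein, stood at 11313 CPM in LT_DT and 3922 in Dormant (1.53, and 1.05 outside cluster 13), and the large scaffold gene Ahnak at 519 and 177 CPM (1.54 and 1.37). Neither was called within cluster 16 alone, at 0.72 and 0.49. Jarid2, a chromatin regulator, stood at 107 and 21.0 CPM (2.22 and 1.95). Ifitm1, an interferon-induced membrane protein, stood at 42.0 and 543 CPM (-3.68 and -4.23). Rgs1, which damps chemokine receptor signals, stood at 96.9 and 581 CPM (-2.58 and -2.81). Of 13 genes in the macrophage list, 10 of them candidates for free RNA, 5 were higher and 1 lower. Their median was 1.39, or 0.88 with genes unseen in 1 stage set at their bound. The lower gene was Timd4, a receptor for dying cells, at -3.03 and -3.54 outside cluster 13. Genes over 5 times higher in macrophage-like, fibroblast, epithelial or T cells of either library are candidates for free RNA, and those outside the lists are not named. The fibroblast list was higher in 6 of 8 genes and lower in 1, at a median of 3.49, beside a summed level of 2804 CPM in LT_DT and 210 in Dormant. Without the cells that held Col3a1, 144 genes were higher and 243 lower.

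**Figure D5:**
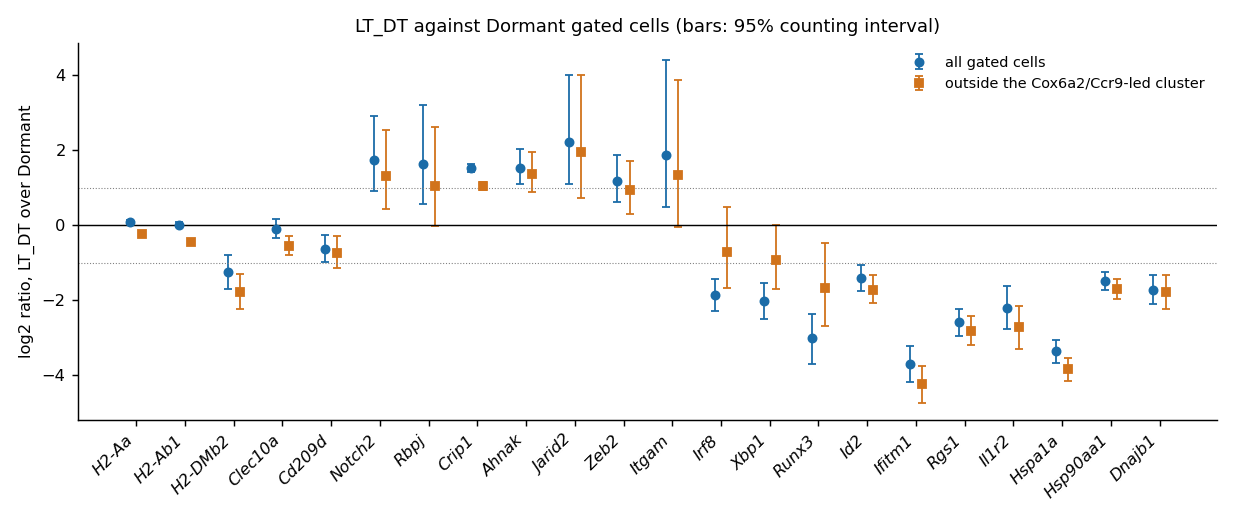
Log2 ratio of LT_DT over Dormant for 22 genes in all Cd209a-gated cells and in those outside the Cox6a2- and Ccr9-led cluster 13, with exact 95% intervals. Dotted lines mark a 2-fold difference. Hspa1a lies at -3.35 and -3.83 and Notch2 at 1.75 and 1.32, while Irf8 lies at -1.86 in all gated cells and at -0.72 outside cluster 13.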

How the data were processed

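Single-cell RNA from 6 mouse libraries, 1 per group, was deposited by the authors as tables of UMI counts per gene (22547 genes) and cell. Per the submitters' processing notes, Cell Ranger 3.1.0, FastQC and mm10 were used. Other steps before deposit are not given in the sources used here. The members and the 31 gene lists were chosen with earlier results of these data known.

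UMIs were summed per population and library with Python 3.11.15 and pandas 2.3.3, and given per 1000000 UMIs (CPM). Shares have Clopper-Pearson intervals, levels exact Poisson intervals and ratios exact conditional Poisson intervals (scipy 1.17.1). Log2 ratios used a prior of 0.5 UMIs. Calls needed 20 UMIs over both populations, a 2-fold difference and an interval off 1, and the steps were tested on simulated counts. Clusters are Leiden clusters of all kept stage cells (scanpy 1.11.5, resolution 1, 2000 variable genes, 30 principal components, 15 neighbours). TMM factors came from edgeR 4.0.16. A test across libraries had been planned for at least 3 libraries with 20 cells of both populations. Only 2, 1 and 2 libraries held them for the Xcr1/Clec9a, migratory and C1q-high cells, so these were set side by side within LT_DT with no test. That design and the comparison with Dormant were chosen after the cell numbers were seen. Named genes are a fixed set, up to 4 called members of each list by size, and the called genes outside the lists with the largest ratios and a mean of at least 50 CPM. A few list members were named beyond this for their role, after their values were seen. Genes of the gates were left out of the counts, and candidates for free RNA outside the lists were not named. Levels of the gate gene Cd209a and of Col3a1, a candidate within a list, are given as descriptions. A few genes of the lists are not reported here.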

Additional observations from a re-analysis of the deposited data

Results flagged for a closer look

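The antibody libraries, which no comparison above used, also held cells that passed the gate: 7 of 2729 Jag1 cells (0.257%) and 12 of 2122 IgG cells (0.566%). Of these, 7 of 7 in Jag1 and 10 of 12 in IgG had a barcode that a cell of the other library carried too, and 2 barcodes were gated in both. The partner cell held a median of 7.38% of the gated cell's UMIs in Jag1 and 7.52% in IgG, and it was the larger of the pair for 3 Jag1 cells and 1 IgG cell. The share was not compared between these libraries.

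Cd300c, a surface receptor on the plasmacytoid list, differed in sign between stages when gated cells were set against Xcr1/Clec9a cells. The log2 ratio was -1.07 in LT_DT (-2.13 to -0.14) and 1.95 in Dormant (0.64 to 3.64). The LT_DT value rested on 14 and 30 UMIs. It was not called (-0.98) with at least 1000 UMIs, 500 genes and at most 10% mitochondrial UMIs in each cell. Plasmacytoid-like cluster 13 held 6.90% of the gated cells in LT_DT and 43.2% in Dormant. The difference between stages and the part of cluster 13 in it were not tested.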

How the results depend on the processing

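No paired analysis was possible because each group holds 1 library. The alternatives planned for the test across libraries (DESeq2, no filter, antibody libraries added, a library left out, no block) were not run, since that test was not made. Among the alternatives listed beforehand 89 of 104 shares and counts, 320 of 326 list medians and 1829 of 1900 gene ratios kept their direction and size or side of the call. Part of this was fixed beforehand: a minimum of 1 UMI cannot change a named gene or list median, and a minimum of 100 UMIs cannot change a gene ratio. Requiring at least 2 Cd209a UMIs gave shares of 0.794% in Dormant and 3.65% in LT_DT, and no C1q UMI gave 0.116% in Primary. With at least 100 UMIs per gene, 180 genes were higher and 91 lower against Xcr1/Clec9a cells, 304 and 103 against migratory, 134 and 155 against C1q-high and 104 and 69 against Dormant cells. With 1 UMI, 757 were lower against migratory and 639 against Dormant cells. At least 2 Cd209a UMIs gave 187 higher and 226 lower against Dormant with Ccr7 at 1.30, Ccl22 at 1.12 and Il4i1 at 1.97, and no C1q UMI gave Ccl22 at 1.53. These signs are opposite to the main ones but rest on 0 or 1 Dormant UMIs with intervals that span 0, so no direction is shown.

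Chosen after seeing the data, cluster 16 alone gave 540 lower against Xcr1/Clec9a cells and 63 higher and 152 lower against Dormant. The sign was opposite for Siglech against Xcr1/Clec9a cells (-1.16) and, against Dormant, for Irf8 (0.29), Ccr7 (0.82), Ccl22 (0.61), Il4i1 (1.87) and Spib (1.67). Each of these had 6 or fewer UMIs in the Xcr1/Clec9a or Dormant cells and an interval that spans 0, so no direction is shown. The intervals left out the main ratio for each of these genes but Ccr7 (Irf8 -1.16 to 2.84, Ccr7 -1.26 to 6.74). Why the ratios moved was not tested. Without cells holding Col3a1 the counts were 321 and 190 against Xcr1/Clec9a, 205 and 164 against migratory, 184 and 319 against C1q-high and 144 and 243 against Dormant cells, with 115 LT_DT gated cells left. Outside the plasmacytoid-like cluster 190 were higher than in Dormant and the plasmacytoid list stood at 0.50. Smaller sets of genes and cells leave fewer genes to call, and beyond that the cause was not tested. The 41005 to 55889 UMIs of the Recurrent and Primary gated cells do not resolve genes under about 50 CPM.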
